A study of Mus musculus with 24 samples.

Results

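The glucocorticoid receptor gene, its known targets, the enzyme that regenerates its ligand and the metallothionein genes Mt1 and Mt2 were followed through 3 tissues. The tissues came from septic or inflamed mice given β-nicotinamide mononucleotide (β-NMN), a precursor of NAD+, or saline (vehicle). The set was chosen by gene symbol and holds 10 genes (Nr3c1, Hsd11b1, Fkbp5, Tsc22d3, Per1, Sgk1, Zbtb16, Dusp1, Mt1 and Mt2) out of 54658 symbols in each count table, and all 10 were found and tested in every tissue. All mice were male C57BL/6 of 7 to 12 weeks. In the thioglycollate (TGC) model, 6 vehicle and 6 β-NMN mice received 1 mL of 4% Brewer thioglycollate medium into the peritoneum and one injection a day for 3 days (β-NMN at 185 mg/kg or saline), the last 24 h before killing. Their peritoneal lavage cells were then plated and exposed to E. coli for 6 h in vitro, so every peritoneal library, vehicle included, comes from bacteria-stimulated cells. In the cecal ligation and puncture (CLP) model, hearts and lungs were taken 24 h after surgery from the same 3 vehicle and 3 β-NMN mice, each treated right after CLP with saline or 185 mg/kg β-NMN. The source labels of these organs name thioglycollate peritonitis, whereas their titles, their tissue labels and the study's methods give CLP. No unoperated, sham-operated or unstimulated library was analysed here, so every value below is a level or a β-NMN-to-vehicle change within disease.

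Glucocorticoids cross the membrane and bind the receptor encoded by Nr3c1, which moves to the nucleus and raises or lowers transcription. Inside cells, 11β-hydroxysteroid dehydrogenase type 1 (Hsd11b1) turns inert 11-keto steroids back into active hormone, and Fkbp5 encodes a co-chaperone that lowers the receptor's affinity for hormone, closing a feedback loop. Among known targets, Tsc22d3 encodes GILZ, an anti-inflammatory leucine zipper protein, Dusp1 a phosphatase that switches off p38 and JNK kinases, Per1 a clock component, Sgk1 a serine/threonine kinase that regulates ion channels, and Zbtb16 the zinc finger repressor PLZF. Metallothioneins are small cysteine-rich proteins that bind zinc and copper. Their genes respond to metal through the factor MTF-1 at metal response elements, and to glucocorticoids and inflammatory cytokines. Dusp1, Per1 and Sgk1 also respond to other stimuli, bacterial products included, so none of these transcripts reads the receptor alone.

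Levels are given as CPM, read counts relative to the TMM-scaled library total within a tissue, and between genes only as RPKM, which also divides by exon length. Depth was 31.1 to 112 M counted reads in peritoneal cells, 27.3 to 68.5 M in hearts and 8.92 to 28.4 M in lungs. Of the peritoneal libraries, 5 (3 vehicle and 2 β-NMN) held more than 90 M reads and the other 7 far fewer. Vehicle mouse 2 stood apart in both organs (the SD across genes of its log2 difference from the other libraries was 0.828 in heart and 1.31 in lung, beside at most 0.393 and 0.510 for the other mice), and its lung had the fewest reads of all 24 libraries. Macrophage markers summed to 7272 to 13708 CPM in vehicle and 10778 to 12552 CPM in β-NMN peritoneal cells. Within that sum, Cd14 fell from a mean of 2693 to 355 CPM (log2 fold change -2.92), while Lyz2 (0.84), Cd68 (0.84) and Mrc1 (1.05) rose, and the other 4 macrophage markers were not called. In the same cells, 5 fibroblast markers summed to 111 to 1173 CPM with vehicle and 22.9 to 99.8 CPM with β-NMN. Neutrophil markers summed to 492.6 to 999 CPM with vehicle and 334 to 468 CPM with β-NMN. Csf3r made up most of that sum, and among the other neutrophil markers S100a8 (log2 fold change -5.00), S100a9 (-5.31) and Ltf (-3.49) fell further while Retnlg rose (1.38). T cell markers summed to 3.03 to 9.64 CPM with vehicle and 0.884 to 2.57 CPM with β-NMN (4 of 4 called lower), and erythroid markers to 2.91 to 38.8 CPM and 52.5 to 133 CPM (5 of 5 called higher). These marker shifts accompany every peritoneal difference below, and their part in it was not tested. Cardiomyocyte markers in hearts (36963 to 55350 CPM) and epithelial markers in lungs (59052 to 104560 CPM) matched the organ labels. Fewer cells of a type and less RNA per cell cannot be told apart in such bulk libraries.

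The promoters of 4 members are shown as examples: Mt1 and Mt2 for their metal response element cores, Sgk1 for its facing receptor half-sites, and Dusp1 for its cAMP response element. Each run covers 250 bases before the transcript start and the first 30 transcribed bases, from RefSeq on GRCm38.p6, read 5′ to 3′ on the gene's strand, and positions count from the transcript start. RefSeq gave 16 such windows for 8 members, and Nr3c1 and Zbtb16 are named only. For Mt2 (chr8:94172368-94172647, plus strand) and Mt1 (chr8:94178839-94179118, plus strand), capitals mark the metal response element core, TGCACNC or TGCGCNC on either strand.
Mt2: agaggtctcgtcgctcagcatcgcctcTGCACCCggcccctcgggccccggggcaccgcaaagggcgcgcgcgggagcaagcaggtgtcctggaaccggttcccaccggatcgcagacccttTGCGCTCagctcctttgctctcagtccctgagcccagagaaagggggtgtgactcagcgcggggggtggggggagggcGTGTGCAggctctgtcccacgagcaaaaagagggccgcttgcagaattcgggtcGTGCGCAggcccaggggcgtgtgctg
Mt1: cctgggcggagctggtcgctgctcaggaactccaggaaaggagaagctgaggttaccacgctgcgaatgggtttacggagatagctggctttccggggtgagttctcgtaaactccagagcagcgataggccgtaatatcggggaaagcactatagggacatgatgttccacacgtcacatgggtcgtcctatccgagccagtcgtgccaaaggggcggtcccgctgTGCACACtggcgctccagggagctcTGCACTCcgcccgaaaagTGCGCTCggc
The Mt2 window holds 4 cores, at -223, -128, -50 and 5, and the Mt1 window 3, at -23, 3 and 21. Of 32851 RefSeq promoters of this length, 24.1% hold at least 1 core and 1.73% hold 3 or more. For Sgk1, 1 of its 6 RefSeq windows is shown (chr10:21993640-21993919, plus strand), with the glucocorticoid receptor half-site AGAACA, on either strand, in capitals.
Sgk1: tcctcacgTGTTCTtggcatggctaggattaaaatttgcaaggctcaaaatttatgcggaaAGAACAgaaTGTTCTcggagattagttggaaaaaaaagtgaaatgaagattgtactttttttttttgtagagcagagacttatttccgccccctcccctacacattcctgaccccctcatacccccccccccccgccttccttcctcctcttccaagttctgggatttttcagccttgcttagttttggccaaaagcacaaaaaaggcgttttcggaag
This window holds 3 half-sites, at -242, -189 and -180, and the last pair face each other with 3 bases between them. At least 1 half-site is found in 17.8% of all promoters and 3 or more in 0.265%, whereas the facing pair is found in 3 promoters, or 0.00913%. For Dusp1 (chr17:26508443-26508722, minus strand), capitals mark the cAMP response element TGACGTCA, which 1.74% of promoters hold.
Dusp1: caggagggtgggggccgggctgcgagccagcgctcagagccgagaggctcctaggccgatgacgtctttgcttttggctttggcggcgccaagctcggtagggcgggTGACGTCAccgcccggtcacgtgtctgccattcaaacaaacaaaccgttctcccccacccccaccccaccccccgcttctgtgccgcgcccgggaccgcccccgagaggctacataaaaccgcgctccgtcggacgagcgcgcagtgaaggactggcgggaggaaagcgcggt
The Dusp1 match lies at -143, and an E-box, CACGTG, follows at -126. Per1 and Fkbp5 each hold 1 E-box, at -166 and -169, a motif present in 6.79% of promoters. The half-site was not among the letters of the Fkbp5, Dusp1, Mt1 or Mt2 windows, and 1 was found in a Tsc22d3 window, at -185. These matches describe letters in short windows and say nothing of binding.

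In E. coli-stimulated peritoneal cells, 9 of the 10 genes differed between β-NMN and vehicle mice at an adjusted p below 0.05, 2 higher (Fkbp5 and Tsc22d3) and 7 lower (Nr3c1, Hsd11b1, Per1, Sgk1, Dusp1, Mt1 and Mt2), while Zbtb16 did not pass. The same test, edgeR's quasi-likelihood test with Benjamini-Hochberg adjustment over 14985 genes, called 23.7% of all genes higher and 27.9% lower, so a call was common in this comparison. The median log2 fold change of the 10 was -0.70, beside -0.02 for all genes. The 6 β-NMN values lay below all 6 vehicle values for 3 members, Hsd11b1, Per1 and Dusp1, and no member had its β-NMN values all above. Over all genes, 14% were separated in that way downward and 12.6% upward. The plot of peritoneal levels shows each mouse.

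**Figure D1:**
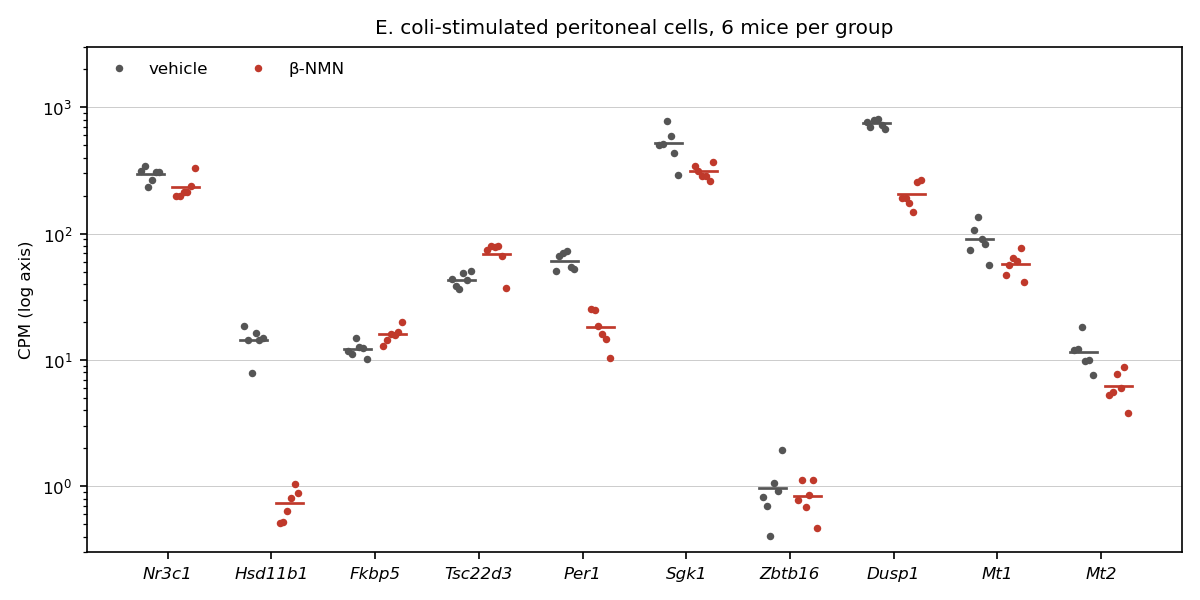
CPM of each gene (log axis) in E. coli-stimulated peritoneal cells of 6 vehicle (grey) and 6 β-NMN (red) mice, with bars at the group means. The groups separate fully at Hsd11b1 (means 14.4 and 0.736 CPM), Per1 (61.3 and 18.3 CPM) and Dusp1 (746 and 204 CPM), and a single β-NMN mouse lies among the vehicle values at Tsc22d3.

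Hsd11b1, the ligand-regenerating enzyme (chromosome 1, 193221634 to 193264075, minus strand), fell most. Its level in vehicle mice ran from 7.94 to 18.7 CPM with a median of 14.6 CPM. In β-NMN mice it ran from 0.516 to 1.05 CPM with a median of 0.721 CPM, which still rested on 24 to 48 reads per library. The highest β-NMN mouse was far below the lowest vehicle mouse. The difference fitted by edgeR was 20.1-fold (log2 fold change -4.33 ± 0.23 SE, adjusted p = 7.21e-09 by edgeR, n = 6 mice per group). Hsd11b1 ranked 18th of 14985 genes by p. The exact permutation p (two-sided) was 0.00216, the lowest possible with 6 mice per group. Fibroblast markers fell too (5 of 5 called), and Hsd11b1 is known from fibroblasts as well as macrophages. The part that cell composition plays in the difference between the groups was not tested.

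Nr3c1, the receptor itself (chromosome 18, 39410545 to 39519421), was high in both groups. Vehicle mice ranged from 234 to 341 CPM (median 307 CPM) and β-NMN mice from 197 to 328 CPM (median 214 CPM). The groups overlapped, since β-NMN mouse 6 reached 328 CPM while the other 5 stayed at or below 238 CPM. The log2 fold change was -0.34 ± 0.13 SE with an edgeR adjusted p of 0.0375. This small decrease lost its call when 9 of the 12 mice were left out one at a time (adjusted p 0.00229 to 0.109), among the 7 shallower libraries alone (-0.22, adjusted p = 0.404), and with another scaling or no low-count filter.

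Fkbp5 and Tsc22d3, often used as readouts of receptor activity, were the members that rose. Fkbp5 (chromosome 17, 28399094 to 28517527) ran from 10.2 to 15.0 CPM in vehicle mice (median 12.1 CPM) and from 12.95 to 19.9 CPM in β-NMN mice (median 16.004 CPM). The β-NMN mice were higher by 1.31-fold (log2 fold change 0.39 ± 0.12 SE, edgeR adjusted p = 0.0116), and 4 of 6 exceeded every vehicle mouse. Tsc22d3 (chromosome X, 140539528 to 140600659) ran from 36.4 to 50.3 CPM in vehicle mice (median 43.0 CPM) and from 37.5 to 80.3 CPM in β-NMN mice (median 76.2 CPM). Here 5 of 6 β-NMN mice exceeded every vehicle mouse and β-NMN mouse 6, at 37.5 CPM, did not. The rise was 1.60-fold (log2 fold change 0.68 ± 0.16 SE, edgeR adjusted p = 0.00227), and without mouse 6 the log2 fold change was 0.84.

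Of the remaining induced genes, Dusp1, Per1 and Sgk1 fell and Zbtb16 did not pass. Dusp1, the MAP kinase phosphatase (chromosome 17, 26505590 to 26562128), ran from 674 to 811 CPM in vehicle mice (median 745 CPM). In β-NMN mice it ran from 150 to 265 CPM (median 191 CPM). The vehicle mice were tightly grouped, with a coefficient of variation of 7.46%, and all lay far above the β-NMN mice. The means differed 3.65-fold (log2 fold change -1.87 ± 0.13 SE, edgeR adjusted p = 8.23e-08). Exons of Dusp1 overlap those of Ergic1 on the other strand, and the sources used here do not give the strand setting of the counting, so some of these reads could belong to Ergic1.

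Per1, the clock gene (chromosome 11, 69095217 to 69109960), ran from 50.5 to 72.5 CPM in vehicle mice (median 60.7 CPM) and from 10.4 to 25.2 CPM in β-NMN mice (median 17.4 CPM). The groups did not overlap and differed 3.34-fold (log2 fold change -1.74 ± 0.19 SE, edgeR adjusted p = 4.05e-06). Sgk1, the kinase whose promoter window carries the facing half-sites (chromosome 10, 21882184 to 21999903), ran from 292 to 772 CPM in vehicle mice (median 506 CPM) and from 263 to 370 CPM in β-NMN mice (median 301 CPM). Its vehicle mice spread widely and vehicle mouse 6, at 292 CPM, lay within the β-NMN range. The log2 fold change was -0.73 ± 0.18 SE (edgeR adjusted p = 0.00303). Zbtb16, the repressor PLZF (chromosome 9, 48654297 to 48836222), was near 1 CPM: 0.407 to 1.94 CPM with vehicle and 0.465 to 1.13 CPM with β-NMN, on 18 to 198 reads per library. Its difference was smaller than the spread between mice (log2 fold change -0.23 ± 0.32 SE, edgeR adjusted p = 0.584).

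Both metallothioneins fell. Mt1 (chromosome 8, 94179082 to 94180327) ran from 56.5 to 135 CPM in vehicle mice (median 87.0 CPM) and from 41.7 to 76.7 CPM in β-NMN mice (median 58.5 CPM). The ranges overlapped, with 2 of 6 β-NMN mice below every vehicle mouse (log2 fold change -0.66 ± 0.19 SE, edgeR adjusted p = 0.00888). Mt2 (chromosome 8, 94172664 to 94173568) ran from 7.61 to 18.2 CPM with vehicle (median 11.01 CPM) and from 3.82 to 8.75 CPM with β-NMN (median 5.80 CPM). Of the β-NMN mice, 4 of 6 lay below every vehicle mouse (log2 fold change -0.91 ± 0.21 SE, edgeR adjusted p = 0.00252). Mouse 6 was the lowest of its group for both genes in vehicle and in β-NMN mice. An exon of Mt2 overlaps Gm45774 on the other strand, with the same limit on strand.

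Depth differed between the libraries in a way the groups do not explain, so the comparison was repeated within each depth class. Within the 5 libraries above 90 M reads, 6 members were called beside 30.5% of 18730 genes, and Fkbp5 (0.29, adjusted p = 0.181), Sgk1 (-0.34, adjusted p = 0.355) and Mt1 (-0.50, adjusted p = 0.113) were not. Among the 7 others, 8 were called beside 27.9% of 15198 genes, all but Nr3c1 and Zbtb16. Hsd11b1 had a log2 fold change of -4.80 in the first class and -3.98 in the second, all by edgeR's quasi-likelihood test. With the depth class as a term over all 12 libraries, the same count of 9 members passed, beside 50.5% of 14985 genes.

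Other genes of the same pathways were read from 5 lists in the peritoneal comparison. Of 20 genes of receptor machinery (chaperones, coactivators, corepressors and the hormone exporter), 3 were higher and 4 lower, beside 23.7% and 27.9% of all genes. The higher genes were Bag1, a chaperone cofactor (0.58 ± 0.09), St13, an Hsp70-interacting cofactor (0.28 ± 0.10), and Smarca4, a chromatin remodelling ATPase (0.26 ± 0.10). Among the lower genes were Abcb1a, a drug and steroid exporter (-0.59 ± 0.10), and the coactivator Crebbp (-0.67 ± 0.14), all values being log2 fold changes ± SE. The list's median log2 fold change was -0.02, close to that of all genes. Of 14 genes of corticosteroid synthesis and metabolism, 6 could be tested, of which 1 was higher and 3 lower, beside the same shares. H6pd, which supplies the cofactor that 11β-HSD1 uses, rose from 6.75 to 11.2 CPM (0.73 ± 0.11), opposite to Hsd11b1. Fdxr (-1.37 ± 0.27), Hsd11b2, the inactivating enzyme (-1.81 ± 0.45), and Star, the cholesterol carrier (-1.64 ± 0.46), were lower at mean levels below 2 CPM.

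Among 29 further glucocorticoid targets, 25 were tested, 6 rose and 12 fell, with a median log2 fold change of -0.40. The share that rose was close to the 23.7% of all genes called higher, and 27.9% of all genes were called lower. Anxa1, encoding the anti-inflammatory annexin A1, rose from 411 to 940 CPM (1.19 ± 0.12). Cd163, the haemoglobin scavenger receptor of macrophages, rose from 1.22 to 4.73 CPM (1.95 ± 0.24), and the small GTPase gene Rhob rose from 197 to 424 CPM (1.11 ± 0.14). Ddit4, an inhibitor of mTORC1, fell from 396 to 20.1 CPM (-4.30 ± 0.21). Il1r2, the decoy receptor for interleukin-1, fell from 25.4 to 3.76 CPM (-2.75 ± 0.26), and the repressor gene Bcl6 from 189 to 84.6 CPM (-1.16 ± 0.14). Each of these had an edgeR adjusted p below 0.05.

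Of 23 metal handling genes listed, 21 were tested, 5 rose and 4 fell, where 23.7% of all genes rose and 27.9% fell, and the median log2 fold change was 0.01. The zinc exporter genes Slc30a1 (60.5 to 132 CPM, 1.13 ± 0.14) and Slc30a4 (0.75 ± 0.08) and the zinc importer gene Slc39a10 (1.19 ± 0.14) rose while Mt1 and Mt2 fell. The zinc and iron importer gene Slc39a14 (261 to 123 CPM, -1.08 ± 0.12), the copper oxidase gene Cp (-1.03 ± 0.19) and Slc30a9 (-0.24 ± 0.08) were lower. Mtf1, the metal sensor, named here after its value was seen, had a log2 fold change of -0.20 and an edgeR adjusted p of 0.115. Paralogs of the members also split: of 11 tested of 12, 5 rose and 4 fell. Fkbp1a (0.79 ± 0.09), Sgk3 (0.77 ± 0.12) and Fkbp2 (0.63 ± 0.14) were higher. Tsc22d4 (-0.50 ± 0.07), Tsc22d2 (-0.97 ± 0.15) and Tsc22d1 (-1.28 ± 0.22) fell while Tsc22d3 rose.

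**Figure D2:**
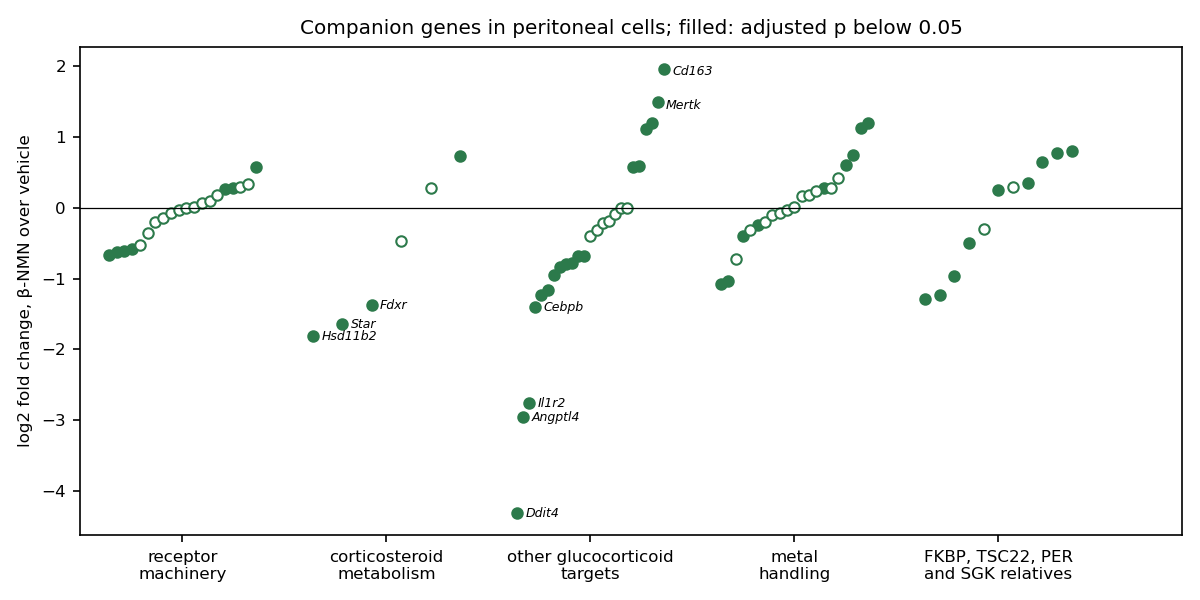
Log2 fold change, β-NMN over vehicle, of each tested gene of the 5 companion lists in peritoneal cells, sorted within a list, with filled points for an edgeR adjusted p below 0.05 and names for called genes beyond 1.3 in either direction (Per2 stands in 2 lists). Further glucocorticoid targets run from Ddit4 at -4.30 to Cd163 at 1.95, and each list holds called genes on both sides of 0.

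In hearts after CLP, no member was called by edgeR's quasi-likelihood test, which called 0% of 16245 genes (1837 genes had an unadjusted p below 0.05). Of the 10, 8 had a log2 fold change below 0, and the median was -0.26 beside -0.01 for all genes. The clearest separation was in the metallothioneins. Mt1 was 1109, 1990 and 1002 CPM in the vehicle hearts and 635, 628 and 743 CPM in the β-NMN hearts. Every β-NMN heart was below every vehicle heart (log2 fold change -1.03 ± 0.29 SE, edgeR adjusted p = 0.435). Mt2 was 59.6, 156 and 49.2 CPM against 20.7, 25.2 and 32.9 CPM, again without overlap (-1.75 ± 0.46 SE, edgeR adjusted p = 0.435). DESeq2, which called 1.98% of the genes it tested, called both (adjusted p = 0.0303 for Mt1 and 0.0123 for Mt2). Without vehicle mouse 2, the log2 fold changes were -0.67 and -1.05. Marker sums separated the same hearts: neutrophil markers summed to 22.1 to 37.5 CPM in vehicle and 14.3 to 16.8 CPM in β-NMN hearts (7 of 7 tested below 0, none called), and cardiomyocyte markers to 36963 to 49355 CPM and 51288 to 55350 CPM. Myh6 made up most of that sum, while the atrial markers Nppa (-4.36) and Myl7 (-5.28) had log2 fold changes below 0 from vehicle hearts whose SD exceeded their mean. Macrophage marker sums overlapped between the heart groups. Of the 8 macrophage markers, 6 had a log2 fold change below 0 and 2 above (list median -0.53, none called). The part of these markers in the heart values was not tested.

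Fkbp5 and Dusp1 were the other members whose heart groups separated. Fkbp5 was 225, 236 and 233 CPM in vehicle hearts and 174, 126 and 213 CPM in β-NMN hearts (-0.44 ± 0.20 SE, edgeR adjusted p = 0.439). Vehicle hearts were alike at this gene, and the β-NMN hearts spread below them. Dusp1 was 102, 150 and 86.1 CPM against 85.4, 83.0 and 64.1 CPM (-0.54 ± 0.23 SE, edgeR adjusted p = 0.435), a gap of less than 1 CPM between the nearest hearts. Without vehicle mouse 2 the log2 fold change of Dusp1 was -0.29. In all, 4 of 10 members lay without overlap below vehicle, where 11.5% of all genes did, and 0 lay above, where 11.6% did. With 3 mice per group the lowest two-sided exact permutation p is 0.1, which each of these 4 reached.

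The other heart values overlapped between the groups. Tsc22d3 was 177, 181 and 167 CPM in vehicle and 174, 134 and 141 CPM in β-NMN hearts. Nr3c1 was 55.7, 49.98 and 63.6 CPM against 50.2, 59.2 and 60.3 CPM. Hsd11b1 was 103, 19.1 and 113 CPM against 123, 53.1 and 138 CPM, with the low value of vehicle mouse 2 setting the vehicle mean: the log2 fold change of 0.42 became -0.05 without it. That heart also had the highest mesothelial marker sum (97.0 CPM) and the highest fibroblast marker sum (2146 CPM) of the 6 hearts, and the part of these in its values was not tested. For Per1, Sgk1 and Zbtb16 the log2 fold changes were -0.30, -0.08 and -0.04, with SE of 0.28, 0.15 and 0.25.

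Lungs gave no called member either: edgeR's quasi-likelihood test called 0% of 17008 genes (301 genes had an unadjusted p below 0.05), and DESeq2 called 0.0536%, no member among them, with no adjusted p given for Mt1 and Mt2. Of the 10, 9 had a log2 fold change below 0. The largest differences were again in the metallothioneins, and they came mostly from 1 lung. Mt1 was 353, 6873 and 231 CPM in vehicle lungs and 223, 79.6 and 188 CPM in β-NMN lungs. All β-NMN lungs lay below all vehicle lungs, narrowly so but for vehicle mouse 2 (-3.93 ± 1.37 SE, edgeR adjusted p = 0.969). Without that mouse the log2 fold change was -0.84. Mt2 was 32.3, 572 and 14.8 CPM against 14.4, 5.80 and 16.2 CPM, with overlap (-4.08 ± 1.40 SE, edgeR adjusted p = 0.969, and -0.96 without vehicle mouse 2). Mt1 was thus the 1 member of 10 whose lung groups did not overlap, downward, where 3.75% of all genes were separated downward and 4.47% upward. Marker sums separated the same lungs: macrophage markers summed to 1427 to 4407 CPM in vehicle and 5072 to 5517 CPM in β-NMN lungs, and cardiomyocyte markers to 285 to 563 CPM and 84.5 to 279.6 CPM. Lyz2 made up most of the macrophage sum, and 5 of the 8 macrophage markers had a log2 fold change below 0 (list median -0.16). Their part in the lung values was not tested.

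Tsc22d3 was 450, 2197 and 435 CPM in vehicle lungs and 701, 487 and 437 CPM in β-NMN lungs. Vehicle mouse 2 turned the sign: the log2 fold change of -0.92 became 0.29 without it. Nr3c1 was 75.6, 157 and 70.7 CPM against 85.8, 117 and 82.9 CPM, and its log2 fold change of -0.08 became 0.38 without that mouse. Hsd11b1 was 203, 82.8 and 155 CPM against 149, 184 and 165 CPM, with 0.18 becoming -0.11. Fkbp5 was 307, 253 and 367 CPM against 208, 135 and 309 CPM, where 2 of 3 β-NMN lungs were below every vehicle lung (-0.51 ± 0.36 SE, edgeR adjusted p = 0.969). Sgk1 (-0.52 ± 0.35), Zbtb16 (-0.64 ± 0.40), Dusp1 (-0.26 ± 0.27) and Per1 (-0.02 ± 0.30) did not pass either. Without vehicle mouse 2, Sgk1 was at -0.13, Zbtb16 at -0.22 and Per1 at -0.21. The lung of vehicle mouse 2 had the lowest macrophage marker sum (1427 CPM) and the highest erythroid (11867 CPM) and adipocyte (554 CPM) marker sums of the 6 lungs, beside the fewest reads, and the part of these in its values was not tested.

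**Figure D3:**
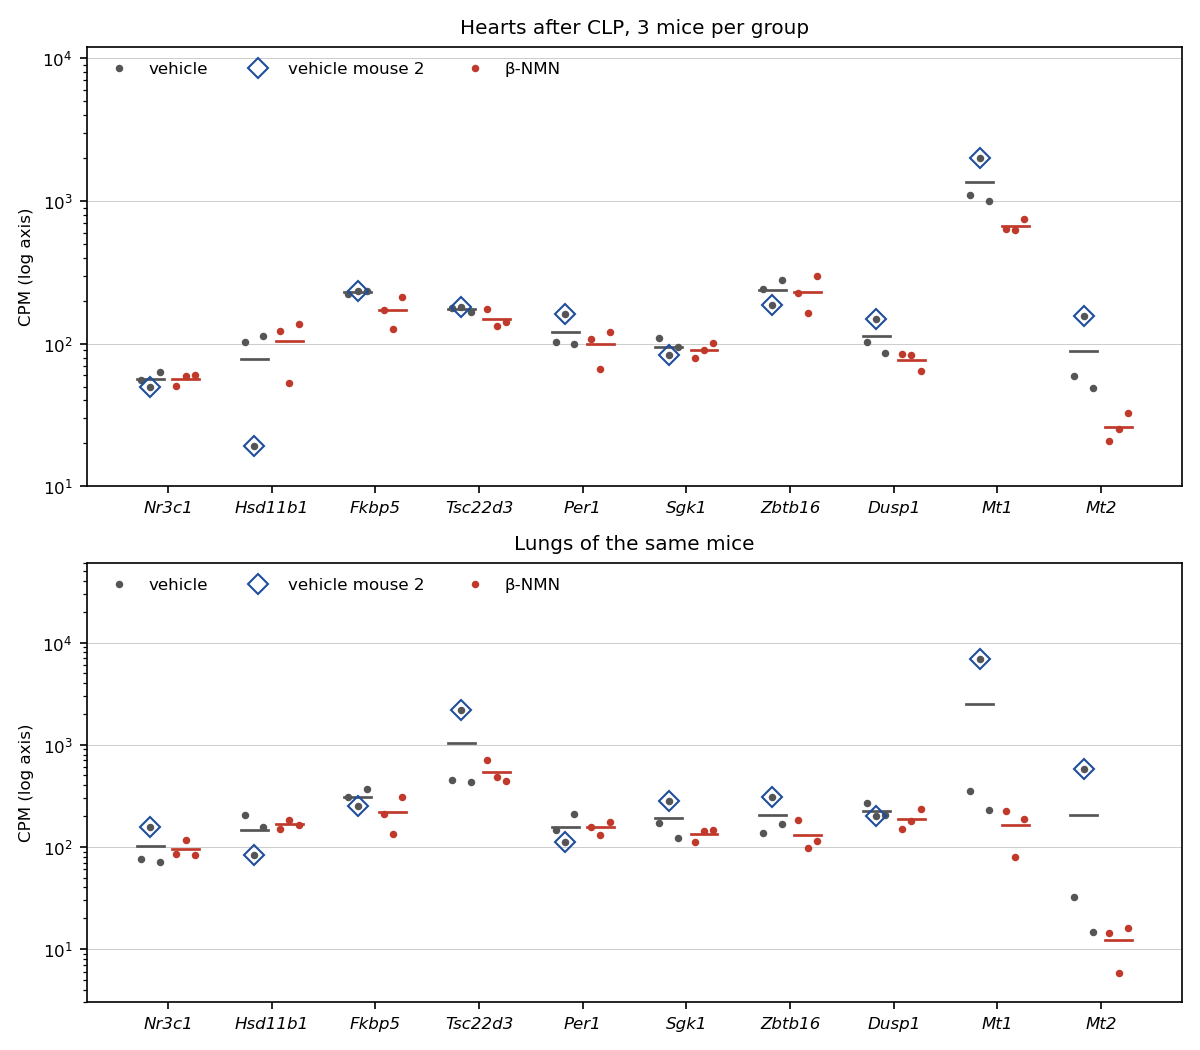
CPM of each gene (log axis) in hearts (top) and lungs (bottom) of the same 3 vehicle (grey) and 3 β-NMN (red) CLP mice, with bars at the group means and blue diamonds around vehicle mouse 2. At Mt1 that mouse reached 1990 CPM in the heart and 6873 CPM in the lung, the highest of 6 in both organs.

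Vehicle mouse 2 was the highest of the 6 mice for 6 members and the lowest for 2 in the heart, and likewise 6 and 2 in the lung. Of these, Tsc22d3, Mt1 and Mt2 were highest in both organs and Hsd11b1 lowest in both. Mt1 was 1.89-fold above the mean of the other vehicle mice in its heart and 23.5-fold in its lung. For Mt2 these ratios were 2.88-fold and 24.3-fold. Hsd11b1 was 5.63-fold below the other vehicle mice in the heart and 2.16-fold in the lung. Per1 was the highest of 6 in the heart (161 CPM) and the lowest in the lung (111 CPM). Tsc22d3 stood 4.97-fold above the other vehicle mice in the lung but only 1.05-fold in the heart.

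Mouse by mouse, Mt1 put the 3 vehicle animals in the same order in both organs, with mouse 2 first, then mouse 1, then mouse 3. The β-NMN animals took the last 3 places in both. Mt1 exceeded Mt2 in every library: per exon length (RPKM), the Mt1 level was 2.94 to 5.16 times that of Mt2 in peritoneal cells, 5.15 to 7.38 times in lungs and 6.00 to 14.5 times in hearts. In hearts this RPKM ratio was 6.00 to 9.61 in vehicle and 10.7 to 14.5 in β-NMN mice. Together the pair took 0.744% of the TMM-scaled library total in the lung of vehicle mouse 2 and no more than 0.0385% in any other lung.

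**Figure D4:**
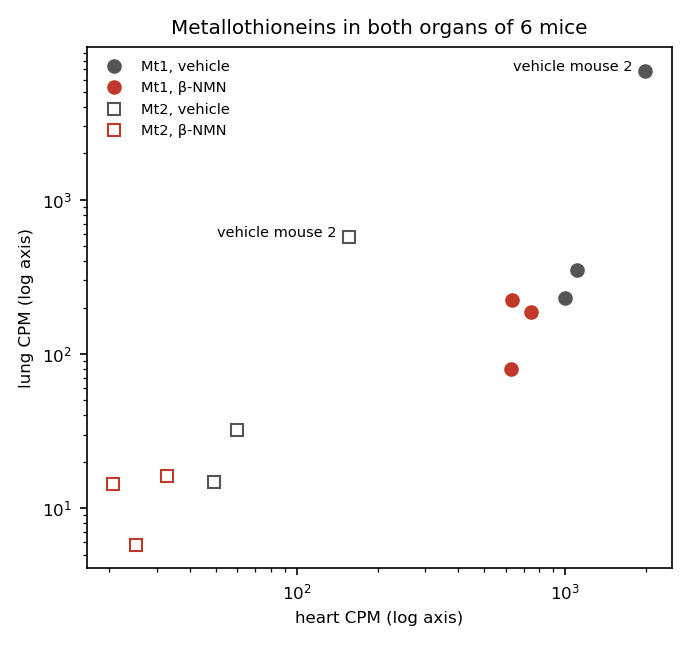
Lung CPM against heart CPM of Mt1 (filled circles) and Mt2 (open squares) in the 6 CLP mice, both on log axes, vehicle in grey and β-NMN in red. Vehicle mouse 2 lies at the upper right for each gene, at 1990 and 6873 CPM for Mt1 and 156 and 572 CPM for Mt2.

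**Figure D5:**
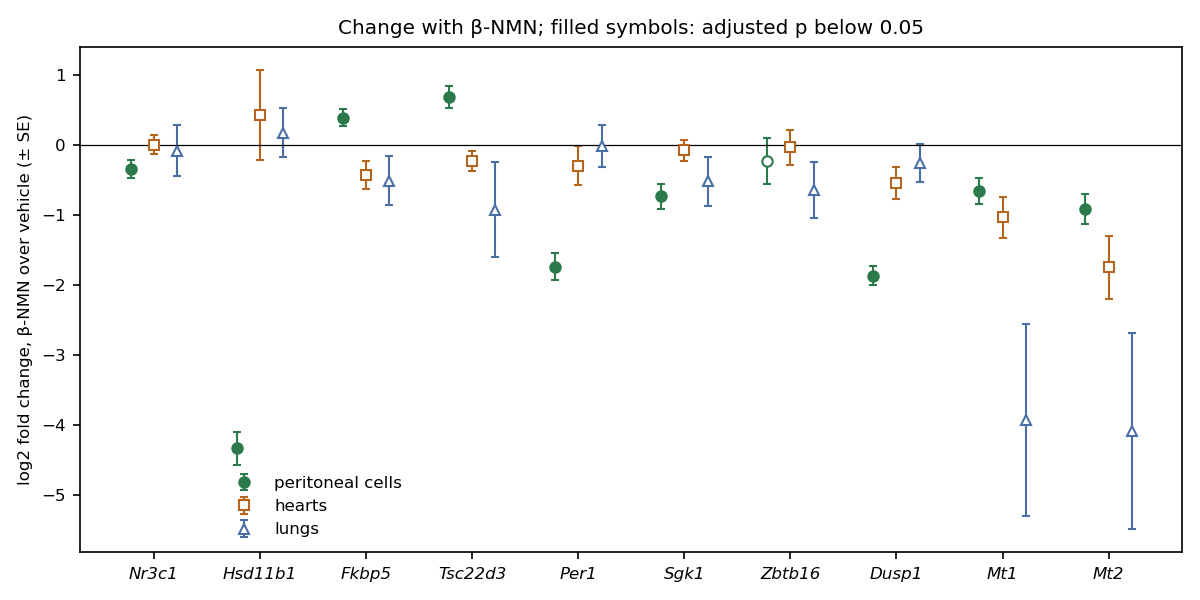
Log2 fold change, β-NMN over vehicle, with its SE for the 10 genes in peritoneal cells (6 mice per group), hearts and lungs (3 mice per group each), filled where the edgeR adjusted p was below 0.05. Mt1 and Mt2 lie below 0 in all 3 tissues, Fkbp5 and Tsc22d3 lie above 0 in peritoneal cells and below 0 in both organs, and all filled symbols are peritoneal.

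Set side by side, 5 members (Per1, Sgk1, Dusp1, Mt1 and Mt2) had a log2 fold change below 0 in every tissue. So did Zbtb16, which passed in none. Some of these signs did not hold when 1 mouse was left out. Per1 in lungs (-0.02 ± 0.30 SE) turned in 2 of 6 such fits. In hearts, Sgk1 (-0.08 ± 0.15 SE) and Zbtb16 (-0.04 ± 0.25 SE) each turned in 2 of 6. In peritoneal cells, Zbtb16 turned in 1 of 12. For Mt2 the values were -0.91 in peritoneal cells, -1.75 in hearts and -4.08 in lungs, the last pair becoming -1.05 and -0.96 without vehicle mouse 2. The organs came from the same mice and the peritoneal cells from others, with another injury, another number of injections and an exposure to bacteria in vitro, so the tissues were not tested against each other except for heart and lung. Whether the β-NMN effect differed between these organs was tested as an interaction over the 12 CLP libraries. No member passed, nor did any gene (0% of 18318, 797 with an unadjusted p below 0.05). The smallest p among members was 0.0604, for Mt1 (interaction -2.80 ± 1.35 SE, lung minus heart, edgeR adjusted p = 0.960). Without vehicle mouse 2 that interaction was -0.20 for Mt1 and 0.06 for Mt2.

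Lung and heart levels, averaged over both treatments and in CPM scaled over both organs, were called different for 3 members, of which Dusp1 did not hold its call. Tsc22d3 averaged 603 CPM in lungs and 205 CPM in hearts, and was higher in the lung of 6 of 6 mice (log2 difference 1.497 ± 0.35 SE, edgeR adjusted p = 0.00276, n = 6 libraries per organ). Without vehicle mouse 2 the difference was 0.84, still called. Zbtb16 averaged 295 CPM in hearts and 131 CPM in lungs and was higher in the heart of 6 of 6 mice (-1.20 ± 0.24 SE, lung minus heart, edgeR adjusted p = 0.000842). Dusp1 was higher in 5 of 6 lungs (163 against 120 CPM, 0.46 ± 0.19 SE, edgeR adjusted p = 0.0481). That call was lost in 4 of the 6 fits that left out 1 mouse, where the log2 difference ran from 0.28 to 0.57 and the edgeR adjusted p from 0.00783 to 0.289. Of all genes, 35.9% were called higher in lung and 28.9% higher in heart.

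Because each heart has a lung of the same mouse, the fit was repeated with the mouse as a replicate block. Dusp1 then lost its call (adjusted p = 0.0922), while Mt1 (-2.15, adjusted p = 0.00923) and Mt2 (-1.44, adjusted p = 0.0281) were called higher in hearts by edgeR. Without the block, Mt1 stood at -1.31 (adjusted p = 0.108) and Mt2 at -0.67 (adjusted p = 0.423). Leaving out vehicle mouse 2, the only mouse whose lung held more Mt1 and Mt2 than its heart, gave -2.72 and -1.94, both called. Tsc22d3 (1.28, adjusted p = 0.00725) and Zbtb16 (-1.23, adjusted p = 0.00301) kept their calls with the block. Nr3c1 (0.10), Fkbp5 (-0.29), Per1 (-0.16), Sgk1 (0.10) and Hsd11b1 (0.12), given as log2 differences without the block, did not pass in either fit.

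By exon length, the members ranked differently in the tissues. In vehicle peritoneal cells, Dusp1 led with a median of 225 RPKM, above Sgk1 (103 RPKM) without overlap, and Sgk1 overlapped Mt1 (69.9 RPKM). Nr3c1 followed at 40.0 RPKM, and Zbtb16 came last at 0.164 RPKM, below Fkbp5 (1.28 RPKM) without overlap. In vehicle hearts, Mt1 led at a median of 890 RPKM and Mt2 followed at 101.4 RPKM, both clear of the rest. Zbtb16 (45.9 RPKM), Tsc22d3 (40.8 RPKM) and Dusp1 (30.9 RPKM) overlapped each other in sequence, and Nr3c1 was last at 7.25 RPKM. In vehicle lungs, Mt1 led at a median of 283 RPKM, but its range overlapped that of Tsc22d3 (104 RPKM). From Dusp1 (61.7 RPKM) down to Nr3c1 (9.84 RPKM), each lung neighbour in the order overlapped the next. Fkbp5 and Zbtb16 were thus among the lowest members in cultured peritoneal cells (1.28 and 0.164 RPKM) and stood at 24.6 and 45.9 RPKM in hearts and 32.4 and 31.6 RPKM in lungs, values that come from separate fits and were not tested against each other.

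No gene of the 5 companion lists was called in hearts or lungs by edgeR's quasi-likelihood test, and the following log2 fold changes ± SE (levels in CPM ± SD, n = 3) are the 2 of smallest p in each list. Among further glucocorticoid targets, the median was -0.46 in hearts over 29 genes (Cd163 -1.45 ± 0.28 and Errfi1 -0.64 ± 0.13) and -0.11 in lungs (Tat -1.83 ± 0.56 and Cebpb -1.71 ± 0.71, with vehicle lungs at 544 ± 547 CPM). Cd163 was thus called higher in peritoneal cells and had a value below 0 in hearts. Metal handling genes had medians of -0.32 in hearts (Slc39a8 -5.00 ± 1.43, from vehicle hearts whose SD exceeded their mean at 39.0 ± 58.0 CPM, and Slc31a1 -0.43 ± 0.14) and -0.15 in lungs (Slc39a14 -1.44 ± 0.49 and Mt3 -1.37 ± 0.58). Receptor machinery had medians of 0.09 (Fkbp4 0.60 ± 0.24 and St13 0.29 ± 0.13) and -0.07 (Crebbp -1.39 ± 0.84, with vehicle lungs at 207 ± 242 CPM, and Ncoa1 -0.94 ± 0.60). Of corticosteroid metabolism, 5 genes were tested in hearts (Fdxr 0.27 ± 0.14 and Srd5a1 0.76 ± 0.41) and 6 in lungs (Srd5a1 0.57 ± 0.41 and Fdx1 -0.61 ± 0.46). The paralog list had medians of -0.05 in both organs, with Sgk3 (-0.61 ± 0.28) and Fkbp11 (-0.61 ± 0.35) in hearts and Fkbp3 (0.45 ± 0.54) and Fkbp2 (0.22 ± 0.28) in lungs.

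To find the genes whose pattern was most like that of Mt2 and Fkbp5, every gene with a mean of at least 1 CPM was compared by the root mean square difference of its centred log2 CPM, in which 0 means an identical pattern. Over the 12 CLP libraries, each organ centred apart, Mt1 was the nearest of 14933 genes to Mt2 (0.30), ahead of Atcayos (0.51) and Ackr1 (0.55). Mt2 stood at 572 CPM in the lung of vehicle mouse 2 and at 32.3 CPM in the next highest lung. That library weighed heavily in this ranking. Over the 12 peritoneal libraries, Btg3 (0.18), Fam162a (0.19) and Klk8 (0.19) were nearest, and Mt1 was the 4th of 11212 genes (0.19). For Fkbp5, the nearest genes in the CLP organs were Ifi35, Pirb and Il18bp (0.20, 0.22 and 0.22). Among members, Per1 ranked 160th and Dusp1 973rd of 14933 genes by likeness to Fkbp5 in the organs. Tsc22d3 ranked 12400th there, with the lung of vehicle mouse 2 at 2197 CPM, and 7356th in peritoneal cells. These ranks describe 12 libraries that share treatment, depth and, in the organs, mice.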

How the data were processed

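Poly(A) RNA had been sequenced by the authors with reads of 150 bp, which the methods describe both as single-end and as paired-end. Per the submitters' processing notes, reads were aligned with STAR 2.7.3a to mm10 and counted per gene symbol with featureCounts 2.0.0. The annotation and strand setting are not given in the sources used here. The deposited tables hold raw read counts, with no normalization by the authors. Total counts were 31.1 to 112 M per peritoneal library, 27.3 to 68.5 M per heart and 8.92 to 28.4 M per lung. No library was found to be a duplicate of another in its group, and libraries of different groups were not compared for this. Groups came from the sample titles. A β-NMN heart whose title repeats the number 3 was placed as replicate 2 by its mouse identifier.

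Tissues were analysed separately with edgeR 4.0.16 (R 4.3.3): filterByExpr, TMM factors, the quasi-likelihood F-test and Benjamini-Hochberg adjustment over all genes tested, with calls at an adjusted p below 0.05. SE is the log2 fold change divided by the root of F. Heart and lung were compared, and the interaction tested, in one fit over the 12 CLP libraries. RPKM used union exon lengths of GENCODE M21 (GRCm38, the build of mm10). Of 54658 symbols, 53994 were found once in that annotation. For members, exact permutation p (two-sided) were taken from mean log2 CPM without a pseudocount. The likeness, the library SD and the correlations between same-numbered mice used a pseudocount of 0.5 CPM. The mice are separate animals.

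The replicate numbers were not taken to pair mice between treatments, since the methods describe random assignment and no label names a pairing. Same-numbered deviations correlated from -0.19 to 0.13 in peritoneal cells, from 0.09 to 0.19 in hearts and from -0.58 to 0.36 in lungs. With so few mice these correlations cannot decide the question. Between heart and lung, the number marks the same mouse.

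The members, the lists and the rule for named genes were chosen with earlier results of these data known. Named were all members and, per companion list and tissue, up to 3 called genes of smallest p in each direction, or the 2 of smallest p where none was called. Likeness was ranked for Mt2 and Fkbp5, the 3 nearest genes being named. Some genes that these rules pick are not reported here. Alternatives were DESeq2 1.42.0 or its size factors alone, the newer quasi-likelihood fit, no filter on low counts, the replicate block, leaving out each mouse and, added after seeing the data, the depth classes. The test was also run on simulated counts, whose outcome is not reported here.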

Additional observations from a re-analysis of the deposited data

Results flagged for a closer look

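In β-NMN peritoneal cells, mouse 6 stood apart from the other 5 at both ends: it had the highest Nr3c1 (328 CPM, the next being 238 CPM) and the lowest Tsc22d3 (37.5 CPM, the next being 66.8 CPM). For each, the gap to the nearest mouse made up 0.686 and 0.684 of the group's whole range, beyond Dixon's 95% limit for 6 samples. Of 20 groups of 6 examined, 2 were marked in this way, and chance marks about 1 in 20. The same mouse was also the lowest of its group at Mt1 (41.7 CPM), Mt2 (3.82 CPM), Per1 (10.4 CPM) and Zbtb16 (0.465 CPM) and the highest at Fkbp5 (19.9 CPM), Sgk1 (370.4 CPM) and Dusp1 (265 CPM). Groups of 3 mice were too small for this comparison.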

How the results depend on the processing

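In peritoneal cells 9 members and 7733 genes were called, 9 and 7010 with the replicate number as a block (replicate block), which changed no other member's call in a tissue, and 4244 genes within the 7 shallower libraries. Zbtb16, not called, was then at 0.32. In hearts, where 0 genes were called, 3 were without the low-count filter, 283 with DESeq2 (2 of them members) and 0 to 5 when each mouse was left out, 5 without vehicle mouse 2. In lungs DESeq2 called 9 genes. For the organ interaction, 2 genes were called without the filter and 14 with DESeq2. Between organs 2 to 5 members were called when mice were left out. With the replicate block Per1 in lungs was 0.0254 and the Nr3c1 interaction 0.0108, and without the filter that interaction was 0.00567. The cause of these shifts was not tested.

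Leaving out one mouse at a time turned the sign of some uncalled log2 values, whose ranges follow. In hearts: Nr3c1 -0.0826 to 0.104, Sgk1 -0.18 to 0.0288, Zbtb16 -0.26 to 0.15 and Hsd11b1 -0.0467 to 0.78. In lungs: Nr3c1 -0.25 to 0.38, Tsc22d3 -1.25 to 0.29, Per1 -0.21 to 0.28 and Hsd11b1 -0.11 to 0.49. In peritoneal cells: Zbtb16 -0.34 to 0.0941. Lung minus heart: Nr3c1 -0.25 to 0.22, Sgk1 -0.22 to 0.19 and Hsd11b1 -0.0908 to 0.25. Interaction: Nr3c1 -0.30 to 0.44, Fkbp5 -0.25 to 0.11, Tsc22d3 -0.98 to 0.48, Per1 -0.19 to 0.71, Sgk1 -0.60 to 0.0219, Dusp1 -0.0663 to 0.53 and Mt2 -2.51 to 0.0628. No called member changed direction under any alternative run. Each organ group held 3 mice, and vehicle mouse 2 stood apart in both organs.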
